A study of Homo sapiens with 8 samples.

Results

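Axon guidance ligands and receptors were followed in RNA pulled down with an antibody against RPS6, the S6 protein of the ribosome's small subunit. The members were all genes of the deposited tables whose symbol belongs to the semaphorin (SEMA3 to SEMA7), plexin (PLXN), neuropilin (NRP), SLIT, ROBO, EPH receptor, ephrin (EFN), netrin (NTN), or UNC5 family. The rule uses names and no measured value, but the families were picked with earlier results of these data known. The tables held 69 such entries with 68 symbols among 57756 genes, since EFNA3 was listed under 2 gene identifiers. A mean of at least 10 estimated counts per library was reached by 58 of them, and by 19921 genes in all. The 11 entries under this minimum were EPHA6, EPHA8, EPHB1, PLXNA4, ROBO4, SEMA5B, SEMA6D, SLIT3, UNC5C, UNC5D, and the second EFNA3 entry. The mean is taken over RIP and input together, so that an mRNA counted almost only in RIP can reach it. SLIT1 did so, and it drops out of the test with a minimum of 50 counts.

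RNA immunoprecipitation sequencing (RIP-seq) was performed in 4 human cancer cell lines with no treatment named: Hep3B (hepatocellular carcinoma), HCT116 (colon cancer), DU145 (prostate cancer), and SW1990 (pancreatic cancer). Each line gave 1 library of RNA pulled down with the RPS6 antibody, called RIP here, and 1 input library from an aliquot of the same lysate, so that 8 libraries formed 4 pairs. The comparison asks which RNAs were over- or under-represented in the RPS6 pull-down, and a pull-down with a nonspecific antibody was not analysed here. The hepatocellular line is named Hep3B by the study's methods and 3B by the library titles, while its cell line label reads Huh7, and it is called Hep3B below. Each line contributed a single pair, and the replicates of the test are the 4 lines, so its error holds differences between cell types as well as technical spread.

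Axon guidance proteins steer growing nerve fibers and are also used by epithelial, vascular, and tumor cells to control adhesion, migration, and tissue borders. Semaphorins signal through plexins, with neuropilins as co-receptors for most secreted class 3 semaphorins. Ephrins are membrane-bound ligands of EPH receptor tyrosine kinases, SLITs are secreted ligands of ROBO receptors, and netrins signal through UNC5 receptors and DCC. Most of these proteins carry a signal peptide and are made at the endoplasmic reticulum.

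The libraries held between 34630345 and 54209614 fragments, as recovered from the estimated counts, and RIP and input depths overlapped. Of the markers of the labelled tissue at 1 FPKM (fragments per kilobase of transcript, scaled to library depth) or more in the input, Hep3B had 7 of 7 for liver, SW1990 had 4 of 6 for pancreatic duct, HCT116 had 1 of 6 for colon, and DU145 had 1 of 6 for prostate. The HCT116 and SW1990 inputs each had 2 of 6 prostate markers. SW1990 input also had 4 of 6 colon markers, and its duct markers summed to 240 FPKM, below 588 in HCT116 and 417 in DU145. Most defining colon and prostate markers were therefore low or absent in the lines labelled with those tissues. Neuron markers summed to between 1.53 and 15.2 FPKM in the inputs and between 1.90 and 11.2 FPKM in the RIP libraries, endothelial markers stayed under 1 FPKM in every library, and the summed pancreatic duct markers were 150 to 588 FPKM in the inputs and 681 to 2330 FPKM in the RIP libraries. Summed markers were also higher in RIP for liver in Hep3B (6610 to 13000 FPKM), for colon in SW1990 (97.9 to 204 FPKM), and for fibroblasts in each line (such as 4.45 to 26.7 FPKM in HCT116 and 0.666 to 7.59 FPKM in SW1990). They were lower in RIP for prostate in DU145 (9.49 to 6.20 FPKM), and in Hep3B for neurons (15.2 to 11.2 FPKM) and leukocytes (22.7 to 11.5 FPKM). Leukocyte sums were under 1 FPKM in the other lines. The part of these lists in the results below was not tested.

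Axon guidance mRNAs were mostly over-represented in the RPS6 pull-downs. Of the 58 members tested, 41 (70.7%) were higher in RIP than in input at an adjusted p under 0.05 in edgeR's quasi-likelihood test with the cell line as a block, while 26.5% of all genes tested were called higher. No member was called lower, against 24.9% of all genes tested. The 41 include SLIT1, which reached the count minimum through its RIP fragments, and 40 of 51 members were called higher with a minimum of 50 counts. At an unadjusted p under 0.05, 1 member was lower in edgeR (EPHA7), and 0 were lower in DESeq2 or limma. The median log2 fold change was 1.51 over the members and -0.05 over all genes tested. In FPKM, RIP was above input in all 4 cell lines for 36 of the 58 members and below it in all 4 for 0 members. The shares of all genes tested were 30.7% and 23.6%. The 36 include SEMA3A, whose log2 fold change from the counts was -0.25. Leaving out a pair ended the calls of EFNA2, NTN3, and SEMA5A (without Hep3B or SW1990), SEMA3B (without HCT116 or SW1990), and EPHA4 (without HCT116, DU145, or SW1990). Limma on log2(FPKM + 1) called 34 of the 41, and the fit without the cell line block called 11. RIP and input of a line came from the same lysate, and so from the same cells. Where levels differ between lines, fewer cells with an mRNA and less of it per cell cannot be told apart in such bulk libraries.

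**Figure D1:**
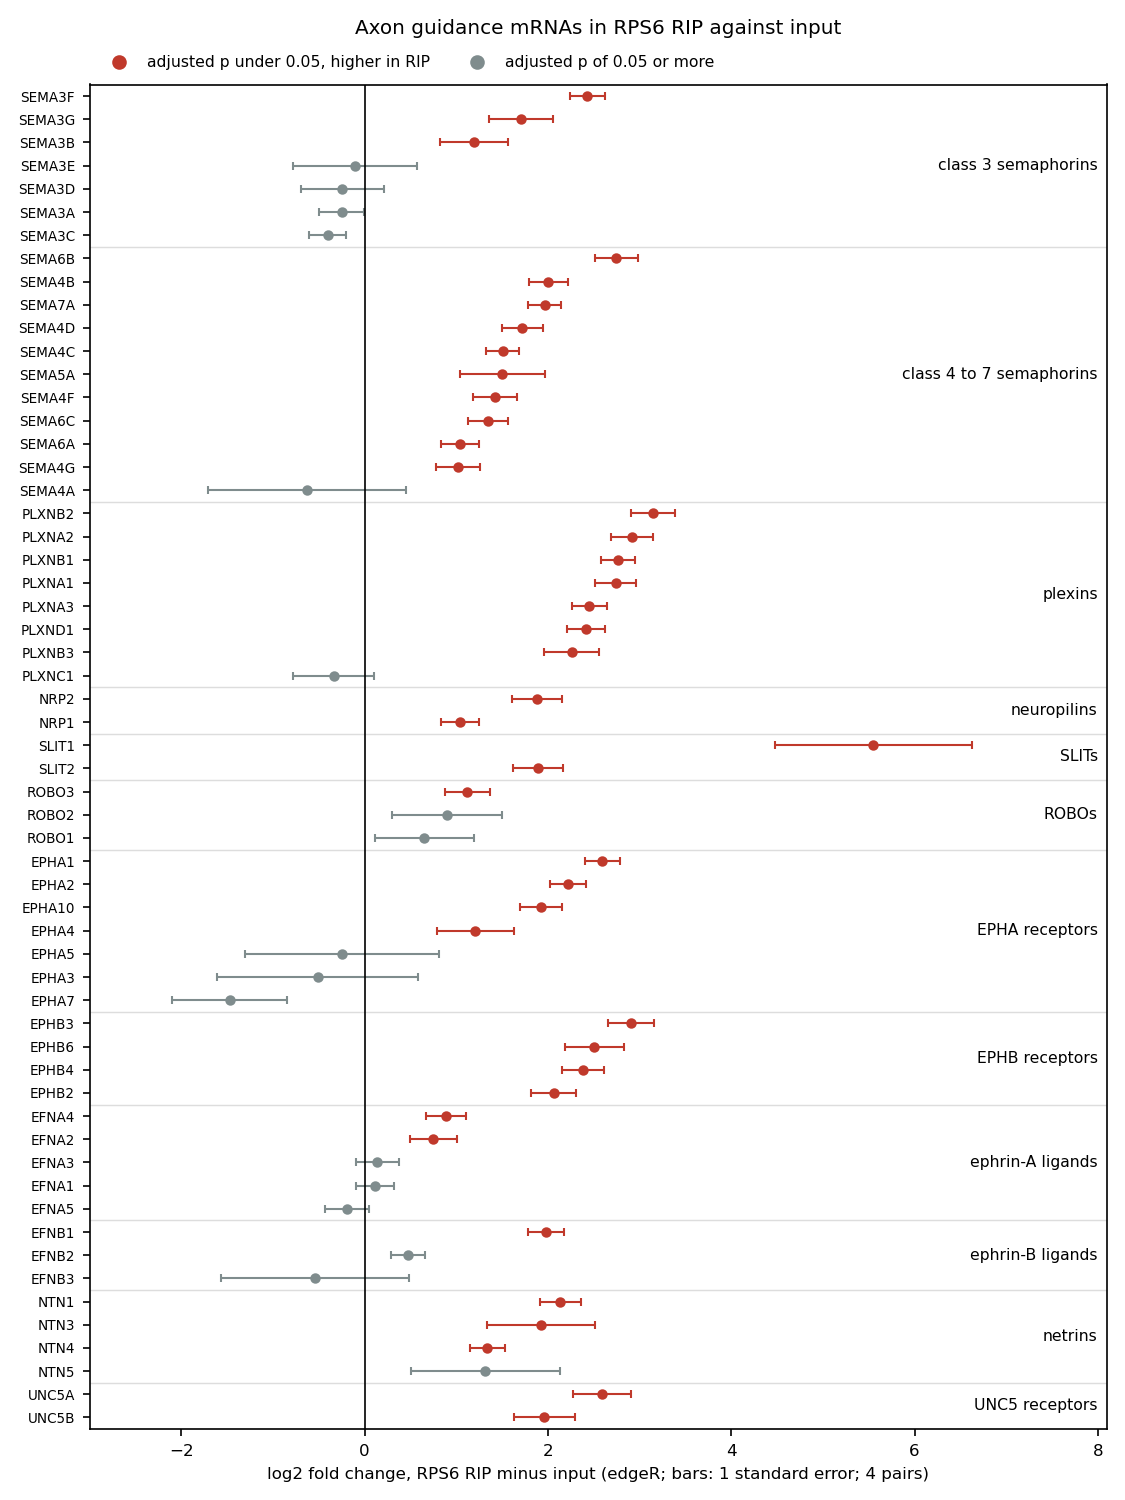
Log2 fold change of RIP over input (x axis, edgeR) for the 58 members tested, grouped by family, with bars of 1 standard error from edgeR's fit of 4 pairs of libraries. Red points passed an adjusted p of 0.05, gray points did not, and the plexins and EPHB receptors lie mostly above 2 while most ephrins lie between -1 and 1.

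By family, all 4 tested EPHB receptors, both neuropilins, SLIT1 and SLIT2, and both tested UNC5 receptors were higher in RIP. So were 7 of 8 plexins, 10 of 11 class 4 to 7 semaphorins, and 3 of 4 netrins. The call of SLIT1 is a description only, since it reached the count minimum through its RIP fragments. Calls were made for 4 of 7 EPHA receptors, 3 of 7 class 3 semaphorins, 2 of 5 ephrin-A ligands, 1 of 3 ephrin-B ligands, and 1 of 3 ROBO receptors. Of all genes tested, 26.5% were called higher, and the counts of ephrin-B ligands and ROBO receptors lie near that share. By role, 20 of 26 receptors (median log2 fold change 2.14) and 21 of 32 ligands (median 1.33, SLIT1 included) were higher. A difference between families was not tested, and the counts are read as descriptions.

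Class 3 semaphorins, the secreted ligands of the family, divided into members with and without a call. SEMA3F, SEMA3G, and SEMA3B, which were higher in RIP, lie on chromosome 3, and SEMA3A, SEMA3C, SEMA3D, and SEMA3E, which had no call over the 4 pairs, lie on chromosome 7. The 100 bases upstream of the first listed transcription start of 6 of these genes (RefSeq, GRCh38.p14) are shown to let the 2 sets be compared, with each GC box in capitals.
SEMA3F, chr3:50154958-50155057, plus strand: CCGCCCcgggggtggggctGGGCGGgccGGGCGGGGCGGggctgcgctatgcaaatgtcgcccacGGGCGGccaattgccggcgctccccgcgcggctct
SEMA3G, chr3:52445104-52445203, minus strand: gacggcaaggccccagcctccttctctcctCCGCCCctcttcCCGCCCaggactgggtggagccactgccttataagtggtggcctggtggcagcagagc
SEMA3B, chr3:50260126-50260225, plus strand: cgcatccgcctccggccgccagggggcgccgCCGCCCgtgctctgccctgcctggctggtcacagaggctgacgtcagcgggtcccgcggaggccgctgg
SEMA3C, chr7:80922390-80922489, minus strand: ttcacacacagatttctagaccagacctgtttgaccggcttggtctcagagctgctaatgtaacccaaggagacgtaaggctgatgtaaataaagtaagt
SEMA3D, chr7:85187057-85187156, minus strand: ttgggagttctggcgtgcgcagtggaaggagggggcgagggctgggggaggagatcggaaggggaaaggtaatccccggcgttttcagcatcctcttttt
SEMA3E, chr7:83649140-83649239, minus strand: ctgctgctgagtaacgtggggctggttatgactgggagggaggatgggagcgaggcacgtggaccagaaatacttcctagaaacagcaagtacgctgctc
A GC box was searched as GGGCGG or its reverse complement CCGCCC, and overlapping matches were counted. The window held 5 boxes in SEMA3F, 2 in SEMA3G, 1 in SEMA3B, and 0 in SEMA3C, SEMA3D, and SEMA3E. The other listed starts do not all follow these windows, since within 250 bases upstream a GC box was found at 1 of 2 starts of SEMA3C, 3 of 5 of SEMA3B, and 2 of 3 of SEMA3F. The G and C content of the printed windows was 81.0%, 67.0%, and 79.0% in the first 3 genes and 44.0%, 60.0%, and 56.0% in the last 3. These letters are a description of the window and say nothing of a factor bound there.

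Values for the 4 lines are given from here on in the order Hep3B, HCT116, DU145, and SW1990. SEMA3F (ENSG00000001617, hg19 chr3:49977439-50226508), a ligand of neuropilin-2, was at 2.69, 4.29, 1.97, and 3.64 FPKM in the inputs and at 22, 29.3, 6.11, and 22.8 FPKM in the RIP libraries. Every RIP library was above every input, and the log2 fold change was 2.43 ± 0.19 (SE, n = 4 pairs, adjusted p = 1.27e-05). SEMA3G (ENSG00000010319, hg19 chr3:52467068-52479101) was at 1.75, 1.05, 0.0214, and 0.443 FPKM in the inputs and 7.99, 4.12, 0.176, and 1.66 FPKM in RIP, higher within each line although the groups overlapped, with a log2 fold change of 1.71 ± 0.35 (SE, n = 4 pairs, adjusted p = 0.00201). SEMA3B (ENSG00000012171, hg19 chr3:50304989-50314977) was called higher with a log2 fold change of 1.20 ± 0.37 (SE, n = 4 pairs, adjusted p = 0.0211), but its DU145 pair was nearly equal, at 1.19 FPKM in input and 1.17 FPKM in RIP.

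SEMA3C (ENSG00000075223, hg19 chr7:80371853-80551675) had the highest mean input level of the class, and its level differed more between lines than between RIP and input. Its inputs were at 10.7, 3.81, 69.7, and 0.470 FPKM and its RIP libraries at 18.8, 3.41, 66.2, and 0.435 FPKM, with a log2 fold change of -0.40 ± 0.20 (SE, n = 4 pairs, adjusted p = 0.119). Without the Hep3B pair, edgeR called SEMA3C lower (log2 fold change -0.68, adjusted p = 0.0191), and limma on log2(FPKM + 1) gave a value of opposite sign, 0.13. Its recovered fragments, before scaling to depth, numbered 996, 597, 12956, and 81 in the inputs and 896, 253, 4790, and 44 in RIP, lower in each line. In Hep3B its FPKM was higher in RIP, and edgeR worked on the counts. SEMA3A, a repellent for many axons, had a log2 fold change of -0.25 ± 0.25 (SE, n = 4 pairs, adjusted p = 0.43) from the counts. Its FPKM was above input in RIP in all 4 lines, at 8.12, 1.01, 0.313, and 1.34 in the inputs and 12.3, 1.18, 0.415, and 3.08 in RIP, while its fragments numbered 1398, 257, 80, and 276 in the inputs and 1090, 169, 21, and 216 in RIP. SEMA3D and SEMA3E were at -0.24 and -0.11 on the same scale, with standard errors of 0.45 and 0.67.

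Plexins, the receptors of the semaphorins, gave the highest family median among groups with more than 2 tested members, at 2.59 on the log2 scale. PLXNB2 (ENSG00000196576, hg19 chr22:50713407-50746056), a receptor of class 4 semaphorins and the most abundant plexin mRNA in these lines, was at 26, 25.5, 31.5, and 54.3 FPKM in the inputs and at 320.1, 341, 232, and 398 FPKM in RIP. The lowest RIP library was more than 4 times the highest input, and the log2 fold change was 3.15 ± 0.24 (SE, n = 4 pairs, adjusted p = 1.27e-05), the rank of 86 among 19921 genes. PLXNB1 (ENSG00000164050, hg19 chr3:48445260-48471594), the receptor of SEMA4D, rose from 25.9, 6.27, 4.41, and 17 FPKM to 132, 32.6, 28.8, and 80.4 FPKM. Its ratio was the steadiest of the plexins over the lines, with log2 ratios on the (FPKM + 1) scale of 2.30, 2.21, 2.46, and 2.17 and a log2 fold change of 2.76 ± 0.19 (SE, n = 4 pairs, adjusted p = 1.23e-05).

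PLXNA1, PLXNA2, and PLXNA3 are partners of the neuropilins. PLXNA1 (ENSG00000114554, hg19 chr3:126707436-126756235) was at 8.11, 4.79, 14.4, and 9.82 FPKM in the inputs and 57.5, 27.1, 45.4, and 67.2 FPKM in RIP, with no overlap between the groups and a log2 fold change of 2.74 ± 0.22 (SE, n = 4 pairs, adjusted p = 1.33e-05). PLXNA3 (ENSG00000130827, hg19 chrX:153686620-153701989) was at 2.61, 8.49, 6.45, and 17 FPKM and 23.6, 43.2, 21.8, and 70.8 FPKM, also without overlap, with a log2 fold change of 2.45 ± 0.19 (SE, n = 4 pairs, adjusted p = 1.27e-05). PLXNA2 (ENSG00000076356, hg19 chr1:208195586-208417665) was a low mRNA, at 1.85, 0.172, 0.512, and 0.398 FPKM in the inputs and 7.52, 0.845, 1.26, and 0.773 FPKM in RIP, and its groups overlapped across lines. Within each line it was higher in RIP, and the log2 fold change from the counts was 2.92 ± 0.23 (SE, n = 4 pairs, adjusted p = 1.27e-05). FPKM gave smaller values, 0.79 in limma on log2(FPKM + 1) and 1.43 on log2(FPKM + 0.1).

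PLXND1, the receptor of SEMA3E, and PLXNB3, a receptor of SEMA5A, were also higher, at 2.42 and 2.26 on the log2 scale. PLXNC1, the receptor of SEMA7A, was the plexin without a call, with a log2 fold change of -0.34 ± 0.44 (SE, n = 4 pairs, adjusted p = 0.547). It was at 10, 0.415, 0.677, and 0.375 FPKM in the inputs and 43.2, 0.372, 0.448, and 0.193 FPKM in RIP, so that it was higher in RIP in Hep3B and lower in RIP in each of the other lines. Its fragments numbered 1881, 112, 198, and 77 in the inputs and 4566, 36, 57, and 26 in RIP. The step in Hep3B was thus smaller in fragments than in FPKM, and the falls in the other lines were larger. Its deposited locus is shared by 7 genes, PLXNC1 included.

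Both neuropilins were higher in RIP. NRP1 (ENSG00000099250, hg19 chr10:33466419-33625190), a co-receptor of class 3 semaphorins and of vascular endothelial growth factor, was at 54.2, 0.706, 42.9, and 7.75 FPKM in the inputs and 148, 0.730, 97.2, and 37.5 FPKM in RIP. The HCT116 pair showed almost no difference, and the log2 fold change was 1.04 ± 0.21 (SE, n = 4 pairs, adjusted p = 0.00195). In the table of Hep3B and HCT116 alone it was 0.75 with an adjusted p of 0.18. NRP2, the co-receptor of SEMA3F, had a log2 fold change of 1.88 ± 0.28 (SE, n = 4 pairs, adjusted p = 2.52e-04). In DU145 its FPKM was lower in RIP, at 0.469 in input and 0.230 in RIP, on 13 and 15 fragments.

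**Figure D2:**
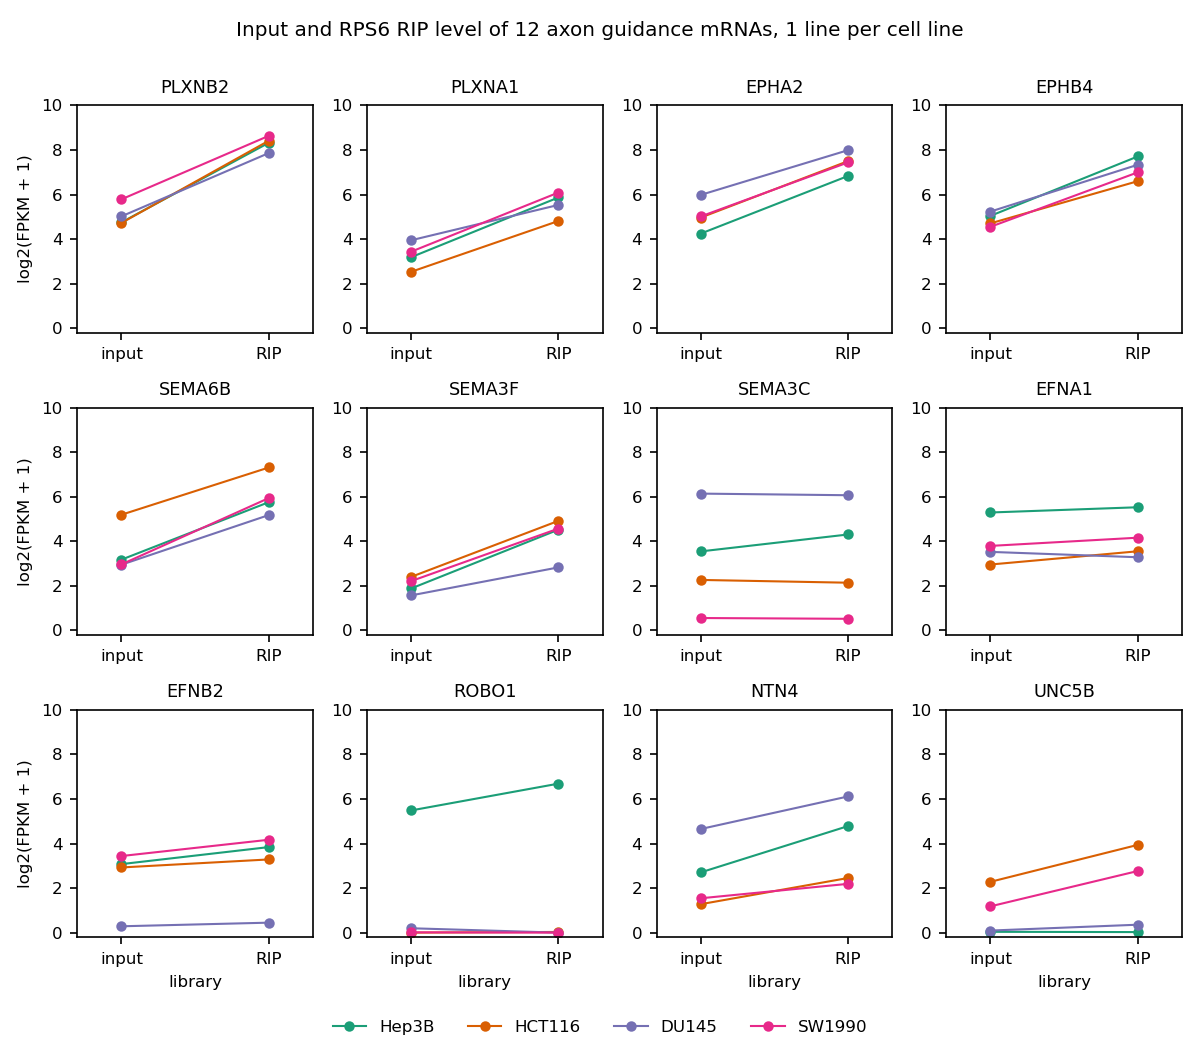
Level of 12 members in input and RIP, as log2(FPKM + 1) on the y axis, with 1 line per cell line. PLXNB2, PLXNA1, EPHA2, EPHB4, SEMA6B, and SEMA3F rise in each of the 4 cell lines, while SEMA3C and EFNA1 change less in FPKM and ROBO1 is seen only in Hep3B.

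Class 4 to 7 semaphorins are membrane-bound, and 10 of their 11 tested members were higher in RIP. SEMA6B (ENSG00000167680, hg19 chr19:4542599-4559820), a transmembrane ligand of A-type plexins, was at 8.06, 35.6, 6.74, and 6.81 FPKM in the inputs and 53.2, 158, 35.3, and 60.5 FPKM in RIP. It rose in each line, from a level in HCT116 input close to the RIP level of DU145, and the log2 fold change was 2.75 ± 0.23 (SE, n = 4 pairs, adjusted p = 1.38e-05). SEMA4B (ENSG00000185033, hg19 chr15:90703835-90772911) had the highest mean input level of the class, which came mainly from DU145, with 5.76, 20.4, 166, and 9.37 FPKM in the inputs and 28.9, 56.2, 616, and 32.5 FPKM in RIP. Its log2 fold change was 2.0 ± 0.21 (SE, n = 4 pairs, adjusted p = 3.67e-05).

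SEMA4D (ENSG00000187764, hg19 chr9:91975701-92113045), the ligand of PLXNB1, was at 8.59, 8.37, 13.9, and 7.48 FPKM in the inputs and 20.8, 19.3, 44.5, and 55.9 FPKM in RIP. Input levels of SEMA4D lay close together, no RIP library fell among them, and the log2 fold change was 1.72 ± 0.23 (SE, n = 4 pairs, adjusted p = 1.28e-04). For SEMA4C (ENSG00000168758, hg19 chr2:97525452-97536494), the inputs were at 19, 6.11, 19.4, and 6.40 FPKM and the RIP libraries at 47.6, 20.2, 46.3, and 27.1 FPKM, with a log2 fold change of 1.51 ± 0.18 (SE, n = 4 pairs, adjusted p = 7.47e-05). SEMA4F (ENSG00000135622, hg19 chr2:74881354-74909186) was at 5.70, 7.15, 19, and 9.30 FPKM and 24.3, 9.36, 48.4, and 34.7 FPKM, with the smallest step in HCT116 and a log2 fold change of 1.42 ± 0.24 (SE, n = 4 pairs, adjusted p = 7.12e-04). SEMA4C and SEMA4F had the highest mean input levels after SEMA4B and SEMA6B.

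SEMA6C (ENSG00000143434, hg19 chr1:151104160-151119104) was at 2.84, 2.73, 4.45, and 0.977 FPKM in the inputs and 6.40, 6.60, 9.53, and 2.47 FPKM in RIP. Its log2 ratios on the (FPKM + 1) scale were 0.95, 1.03, 0.95, and 0.81, close to each other, and its log2 fold change was 1.34 ± 0.22 (SE, n = 4 pairs, adjusted p = 5.21e-04). SEMA6A (ENSG00000092421, hg19 chr5:115779311-115927094), another ligand of A-type plexins, was at 9.47, 4.74, 0.266, and 0.417 FPKM and 24.7, 6.93, 1.71, and 0.571 FPKM, with a log2 fold change of 1.04 ± 0.21 (SE, n = 4 pairs, adjusted p = 0.00192). Its call was lost in each deposited table alone (adjusted p = 0.27 for DU145 and SW1990, and 0.05 for Hep3B and HCT116, above the threshold before rounding) and in limma on log2(FPKM + 1) (adjusted p = 0.0544). The DU145 and SW1990 libraries held between 34 and 72 fragments of it. SEMA7A, a lipid-anchored ligand of PLXNC1 and integrins, was at 1.96, while its receptor PLXNC1 had no call. SEMA5A and SEMA4G were called with 3 of 4 lines higher (1.5 and 1.02 on the log2 scale), and SEMA4A, with 0 to 23 fragments in a library, was at -0.63 without a call.

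EPH receptors form the largest family of receptor tyrosine kinases, and 8 of the 11 tested were higher in RIP with a median log2 fold change of 2.06 over the 11. EPHA2 (ENSG00000142627, hg19 chr1:16450831-16483824), a receptor of ephrin-A1 that many carcinomas express, was the most abundant, at 18, 30.3, 62.4, and 31.4 FPKM in the inputs and 113, 181, 254, and 173 FPKM in RIP. No RIP library overlapped the inputs, and the log2 fold change was 2.22 ± 0.20 (SE, n = 4 pairs, adjusted p = 1.68e-05). EPHB4 (ENSG00000196411, hg19 chr7:100400186-100464631), the receptor of ephrin-B2, was at 32, 25.1, 36.7, and 22.5 FPKM in the inputs and 209, 96.1, 161, and 127 FPKM in RIP. Its groups did not overlap either, and the log2 fold change was 2.38 ± 0.23 (SE, n = 4 pairs, adjusted p = 2.13e-05).

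EPHA1 (ENSG00000146904, hg19 chr7:143078172-143220542) was at 7.98, 4.10, 0.691, and 8.65 FPKM in the inputs and 37.9, 19.4, 4.53, and 43.6 FPKM in RIP, lowest in DU145 and higher in RIP within each line, with a log2 fold change of 2.60 ± 0.19 (SE, n = 4 pairs, adjusted p = 1.26e-05). EPHB3 (ENSG00000182580, hg19 chr3:183851806-184402546) was nearly absent in Hep3B, at 0.00554, 1.37, 1.28, and 4.80 FPKM in the inputs and 0.0873, 8.94, 10.2, and 23.4 FPKM in RIP. Its log2 fold change was 2.91 ± 0.25 (SE, n = 4 pairs, adjusted p = 1.47e-05), and its deposited locus is shared by 23 genes, EPHB3 included. The locus of EPHA1 is shared by 8 genes, that of EPHB2 by 5, and that of EPHB4 by 4, counted in the same way. EPHB6 (ENSG00000106123, hg19 chr7:142552791-142568847), a receptor without kinase activity, was at 0, 2.76, 0.721, and 8.28 FPKM and 0.150, 12.8, 1.49, and 48.5 FPKM. Its 14 fragments in Hep3B RIP stood against 0 in the input, and its log2 fold change was 2.51 ± 0.32 (SE, n = 4 pairs, adjusted p = 1.11e-04). EPHB2 was at 2.06, with 0 fragments in Hep3B input and 2 in Hep3B RIP.

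The EPHA receptors without a call were found mainly in Hep3B. EPHA3, EPHA5, and EPHA7 had 108, 174, and 581 fragments in Hep3B input and at most 30 in any library of the other lines. EPHA7, at 3.0, 0.0981, 0, and 0 FPKM in the inputs and 1.79, 0.0306, 0, and 0 FPKM in RIP, had the lowest log2 fold change of all members, -1.47 ± 0.63 (SE, n = 4 pairs, adjusted p = 0.0828). EPHA10 and EPHA4 were higher, at 1.92 and 1.21, and EPHA4 was at 0 in both Hep3B libraries.

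Ephrins, the ligands of these receptors, were higher in RIP in 3 of 8 cases, beside 26.5% of all genes tested. Their median log2 fold change was 0.31. EFNA1 (ENSG00000169242, hg19 chr1:155099935-155107333), the most abundant ephrin-A mRNA, was at 38.3, 6.78, 10.5, and 12.9 FPKM in the inputs and 45.2, 10.7, 8.75, and 16.9 FPKM in RIP. RIP was above input in 3 lines and below it in DU145, and the log2 fold change was 0.11 ± 0.21 (SE, n = 4 pairs, adjusted p = 0.668). Its sign turned when the HCT116 pair was left out (-0.01). EFNA4 (ENSG00000243364, hg19 chr1:155036206-155060014) was called higher, at 13.4, 3.75, 9.76, and 13.5 FPKM and 35.6, 8.08, 18.8, and 19.6 FPKM with a log2 fold change of 0.89 ± 0.22 (SE, n = 4 pairs, adjusted p = 0.00635), but it shares its locus with both EFNA3 entries in the tables. EFNA2 was called with 3 of 4 lines higher (0.75), and EFNA3 and EFNA5 were at 0.14 and -0.20 without a call.

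EFNB2 (ENSG00000125266, hg19 chr13:107142078-107187462), the ligand of EPHB4, was at 7.44, 6.60, 0.218, and 9.85 FPKM in the inputs and 13.3, 8.76, 0.364, and 17 FPKM in RIP. It was higher in RIP within all 4 lines but missed the threshold, with a log2 fold change of 0.47 ± 0.19 (SE, n = 4 pairs, adjusted p = 0.0561), while DESeq2 called it (adjusted p = 0.0101). EFNB1 was higher at 1.98 ± 0.20 (SE, n = 4 pairs, adjusted p = 2.51e-05), and EFNB3, at 0 in both SW1990 libraries, was at -0.54 without a call.

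Among SLIT and ROBO mRNAs, ROBO1, ROBO2, and SLIT2 were counted mainly in Hep3B. SLIT2 (ENSG00000145147, hg19 chr4:20254882-20622184), a secreted repellent, was at 4.64, 0.424, 0.112, and 0.0105 FPKM in the inputs and 32.8, 2.60, 0.281, and 0.287 FPKM in RIP, so that its level outside Hep3B was low. The SW1990 values rest on 2 input and 3 RIP fragments. It was higher in RIP within each line, with a log2 fold change of 1.90 ± 0.27 (SE, n = 4 pairs, adjusted p = 2.21e-04) that was 1.08 in the table of DU145 and SW1990 alone (adjusted p = 0.471). SLIT1 (ENSG00000187122, hg19 chr10:98757794-99052413) was a rare mRNA counted almost entirely in RIP. Its fragments numbered 0, 0, 0, and 3 in the inputs and 14, 36, 6, and 52 in RIP, which is 108 against 3 in all. Per fragment of depth, the ratio was 40.7, with an exact 95% interval from 13.6 to 201 that covers counting error only. That interval takes the rounded fragments as whole counts. The Hep3B, HCT116, and DU145 inputs held SLIT1 values just above 0 (1.18e-05, 1.68e-15, and 1.36e-06 FPKM). Its deposited locus is shared by 5 genes, SLIT1 included. Since SLIT1 reached the count minimum through its RIP fragments, its ratio and its call are descriptions only. The fitted log2 fold change of 5.55 ± 1.08 (SE, n = 4 pairs, adjusted p = 0.00154) depends on the small prior count that edgeR adds.

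ROBO3 (ENSG00000154134, hg19 chr11:124735281-124751366) was the ROBO receptor called higher, at 0.490, 11.6, 6.48, and 4.12 FPKM in the inputs and 1.24, 27.6, 11.9, and 6.78 FPKM in RIP, with a log2 fold change of 1.12 ± 0.25 (SE, n = 4 pairs, adjusted p = 0.00317). ROBO1 (ENSG00000169855, hg19 chr3:78646389-79816965), the main receptor of SLIT2, was at 43.9, 0, 0.146, and 0.00879 FPKM in the inputs and 102, 0.0213, 0, and 0 FPKM in RIP. It was therefore measured in Hep3B only, where RIP was above input, and the fit over 4 lines gave 0.65 ± 0.54 (SE, n = 4 pairs, adjusted p = 0.341), with a value of opposite sign in DESeq2 (-0.49). ROBO2, with 483 fragments in Hep3B input and at most 2 in any library of the other lines, was at 0.90 without a call.

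Netrins and UNC5 receptors were present at modest levels. NTN4 (ENSG00000074527, hg19 chr12:96043030-96184930), a secreted protein that binds laminin, was at 5.53, 1.43, 24.2, and 1.91 FPKM in the inputs and 26.6, 4.48, 68.4, and 3.57 FPKM in RIP. Each line rose, and the log2 fold change was 1.34 ± 0.19 (SE, n = 4 pairs, adjusted p = 2.17e-04). NTN1, the ligand of DCC and UNC5 receptors, was higher at 2.13 ± 0.22 (SE, n = 4 pairs, adjusted p = 3.19e-05), with no overlap between the groups. NTN3 (ENSG00000162068, hg19 chr16:2521499-2524146) was at 0.933, 0.0598, 0.390, and 0.128 FPKM in the inputs and 4.80, 0.210, 0.416, and 0.976 FPKM in RIP, with almost no step in DU145 and a log2 fold change of 1.92 ± 0.59 (SE, n = 4 pairs, adjusted p = 0.0191). Its call was lost without the Hep3B pair (adjusted p = 0.147) and without the SW1990 pair (adjusted p = 0.0732). NTN5 was at 1.32 ± 0.81 (SE, n = 4 pairs, adjusted p = 0.201).

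UNC5A (ENSG00000113763, hg19 chr5:176237477-176326333) was at 0.0218, 3.77, 0.509, and 0.274 FPKM in the inputs and 0.331, 13.9, 2.04, and 2.44 FPKM in RIP. It was highest in HCT116 and higher in RIP within each line, with a log2 fold change of 2.59 ± 0.31 (SE, n = 4 pairs, adjusted p = 7.41e-05). UNC5B (ENSG00000107731, hg19 chr10:72972326-73062621) was at 0.0259, 3.86, 0.0662, and 1.27 FPKM and 0.0171, 14.4, 0.280, and 5.81 FPKM, nearly absent in Hep3B, with a log2 fold change of 1.96 ± 0.33 (SE, n = 4 pairs, adjusted p = 6.22e-04) and no call in limma on log2(FPKM + 1) (adjusted p = 0.0594). UNC5D was at 0 in all 8 libraries.

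Within each cell line, a single pair allows no test, and the ratio of RIP to input was described on the (FPKM + 1) scale. Ratios of at least 2-fold in favor of RIP were found for 30 of the 58 members in Hep3B (19.1% of all genes tested), 29 in HCT116 (18.7% of all genes), 24 in DU145 (18.2% of all genes), and 29 in SW1990 (19.8% of all genes). Ratios of at least 2-fold in favor of input were found for 0 members in each line, where they held for 16.0% of all genes tested in SW1990, 13.6% in DU145, 13.4% in HCT116, and 10.6% in Hep3B. On this scale, a gene under 1 FPKM in input cannot be 2-fold lower in RIP. Only 40, 38, 31, and 35 members reached 1 FPKM in the inputs of the 4 lines, so the others could not be counted. The median log2 ratio of the members was 1.11, 0.98, 0.67, and 0.999 in the 4 lines, 0.94 ± 0.19 (SD, n = 4). Over all genes tested it was 0.03 ± 0.03 (SD, n = 4). The members' median was lowest in DU145.

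**Figure D3:**
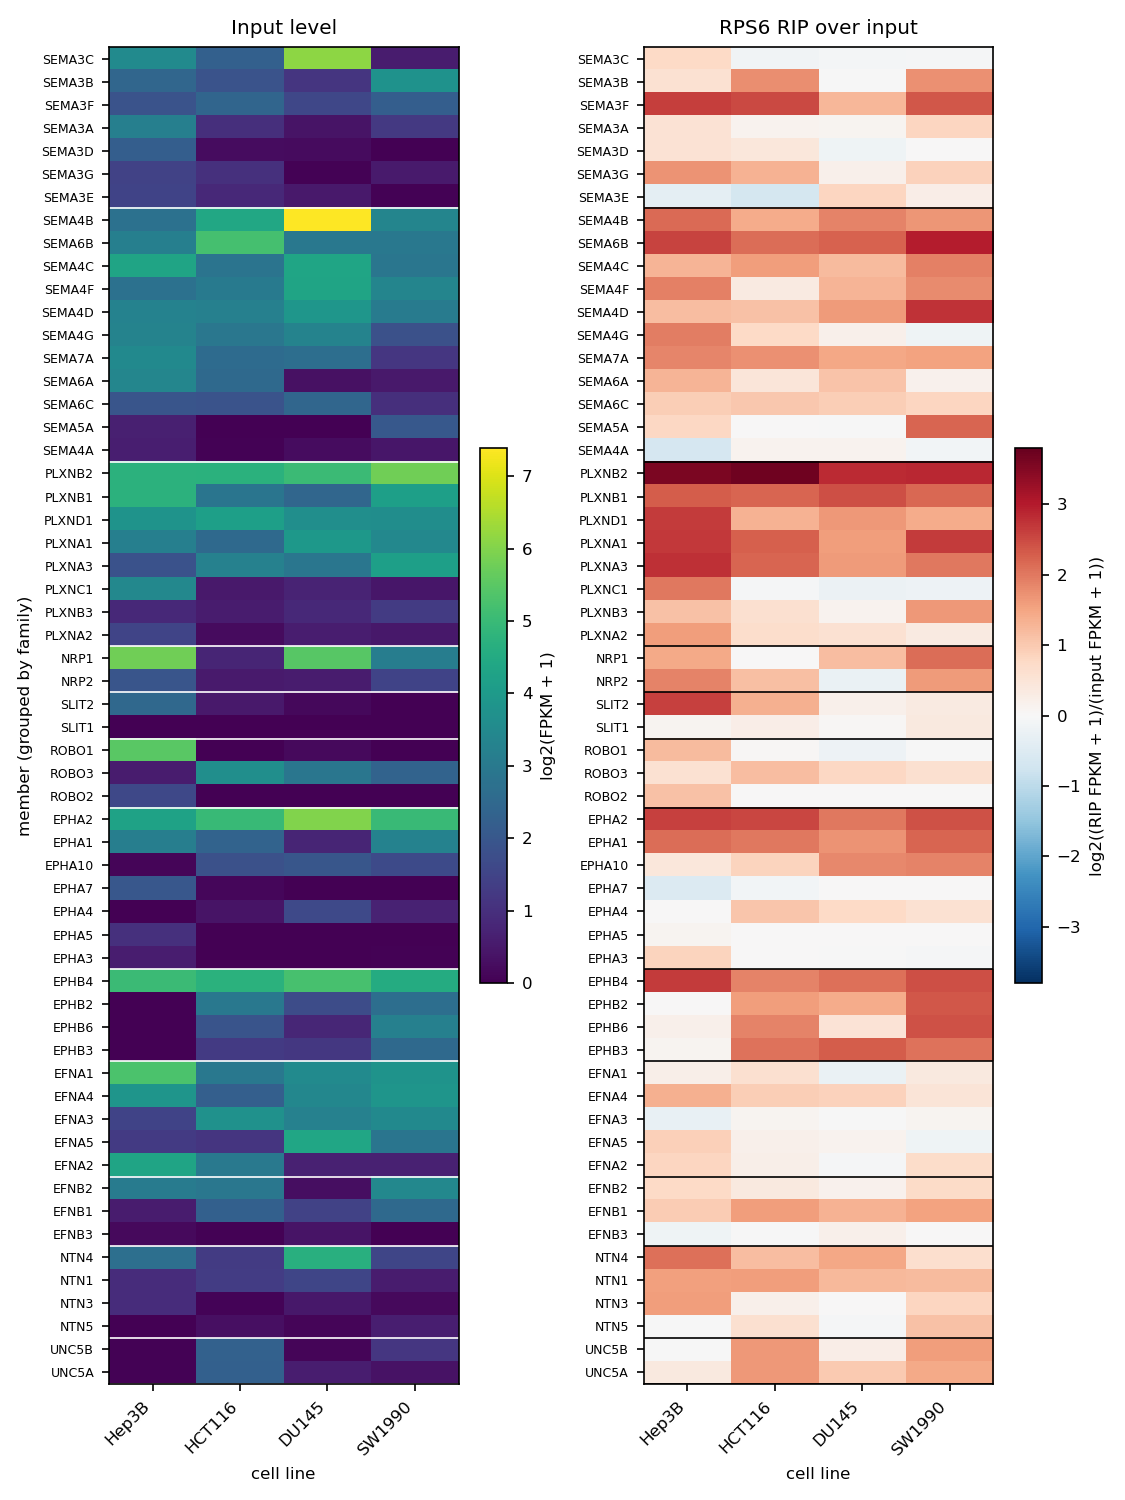
Left, input level of the 58 tested members as log2(FPKM + 1) by cell line, and right, the log2 ratio of RIP to input on the (FPKM + 1) scale, with families separated by lines. Red rows such as PLXNB2, EPHA2, and EPHB4 are above 0 in all 4 lines, while ROBO1, ROBO2, EPHA3, EPHA5, and EPHA7 have an input level almost only in Hep3B.

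The inputs showed which guidance genes each line expressed. Of the 58 members, 40 were at 1 FPKM or more in Hep3B input, 38 in that of HCT116, 35 in that of SW1990, and 31 in that of DU145. EPHB2, EPHB3, and EPHB6 were at or near 0 in Hep3B, and ROBO1, SLIT2, and EPHA7 were highest there. SEMA4B and SEMA3C were highest in DU145, at 166 and 69.7 FPKM. HCT116 had the highest SEMA6B, UNC5A, and UNC5B, and SW1990 the highest PLXNB2, PLXNA3, and SEMA3B. The levels of Hep3B and HCT116 come from another table than those of DU145 and SW1990, which was normalized separately, and with 1 input per line these differences have no test.

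The members were long transcripts. Relative transcript length, taken from the ratio of estimated count to FPKM, placed the median tested member at percentile 83.2 of all genes tested, and 83.7 and 79.6 for members with and without a call. Among all genes tested, split into 4 groups of equal size by length, 9.34% of the shortest, 23.1% and 31.3% of the middle groups, and 42.3% of the longest were called higher. The members numbered 0, 8, 10, and 40 in these groups, of which 0, 3, 7, and 31 were called. In the longest group, 31 of 40 members, SLIT1 included, were thus called beside 42.3% of all genes of that length. Across genes, which share libraries and are not independent replicates, length and log2 fold change had a Spearman correlation of 0.33 over the 58 members and 0.32 over 19921 genes. The part of length in the members' result was not tested.

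**Figure D4:**
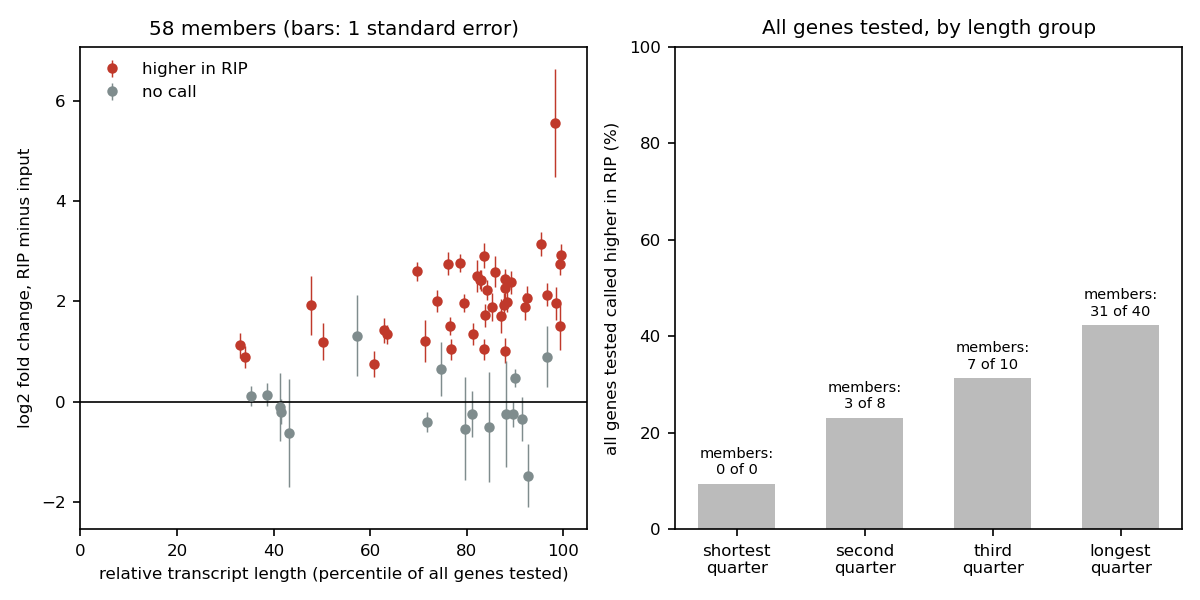
Left, log2 fold change of RIP over input with its standard error against relative transcript length, as a percentile of all genes tested, for the 58 members. Right, the percent of all genes tested that were called higher in each of 4 groups of equal size by length, with the members' counts above the bars, where 31 of 40 members of the longest group were called.

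Promoter composition also moved with the ratio. RefSeq promoter entries (GRCh38.p14) were matched for 58 of the 68 symbols and for 49 tested members. A GC box was present within 250 bases upstream of 43 of 50 listed starts (86.0%) of members called higher and of 15 of 26 starts (57.7%) of members without a call. The share was 60.7% over all genes tested, 67.1% over all genes called higher, and 42.6% over all entries. The G and C content of the same 250 bases had a Spearman correlation with the log2 fold change of 0.36 over 49 members and 0.20 over 11443 genes, as a description with no test. For the first 50 bases of the transcript, the same correlation was 0.43 over 49 members and 0.17 over 11443 genes. The part of promoter or transcript composition in the result was not tested.

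Other genes of the guidance pathways were taken from a list of 92 names, of which 91 were in the tables and 83 were tested. Of these, 44 (53.0%) were higher in RIP and 6 were lower, again beside 26.5% and 24.9% of all genes. Other surface proteins and ligands counted 13 higher and 2 lower of 29, and the list of intracellular partners 31 higher and 4 lower of 54. That list also holds the transmembrane proteins PLXDC1, without a call, and PLXDC2, called higher. The highest of the list was CELSR3, a large cadherin of the planar polarity pathway, at 0.883, 1.02, 1.69, and 1.66 FPKM in the inputs and 4.17, 6.55, 8.91, and 13 FPKM in RIP, with a log2 fold change of 2.73 ± 0.21 (SE, n = 4 pairs, adjusted p = 1.27e-05). L1CAM, an adhesion molecule that binds neuropilin-1, was at 1.13, 1.97, 0.393, and 0.259 FPKM and 18.5, 14.2, 0.982, and 1.43 FPKM (2.59 on the log2 scale). ARHGAP39, a GTPase activating protein, was at 1.38, 4.57, 1.38, and 4.25 FPKM and 6.86, 35.4, 7.41, and 19.5 FPKM (2.58). Values in RIP exceeded those in input within each of the 4 lines for these 3 genes.

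The partners that were lower in RIP were ITGB1, FZD3, CDC42, PAK2, NCK1, and ENAH. ITGB1, the integrin beta-1 subunit, was abundant, at 310, 109, 730, and 128 FPKM in the inputs and 124, 46.7, 277, and 46.3 FPKM in RIP, with a log2 fold change of -1.81 ± 0.21 (SE, n = 4 pairs, adjusted p = 6.06e-05). FZD3, a Wnt receptor, was at 0.308, 8.63, 9.0, and 13.5 FPKM and 0.269, 4.53, 3.75, and 6.82 FPKM (-1.78), and CDC42, a small GTPase, was at 228, 188, 95.7, and 83.6 FPKM and 101, 74.6, 24.3, and 43.7 FPKM (-1.47). All 3 were lower in RIP within each line, and limma on log2(FPKM + 1) did not call FZD3 (adjusted p = 0.0573). The adaptor NCK1, the kinase PAK2, and the actin regulator ENAH were at -1.20, -1.26, and -0.82. NCK1 and PAK2 were lower in RIP within each line, while ENAH was higher in RIP in SW1990 (32.6 FPKM in input and 37.0 FPKM in RIP). The GTPases RAC1 and RHOA were at -0.33 and -0.35 without a call.

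**Figure D5:**
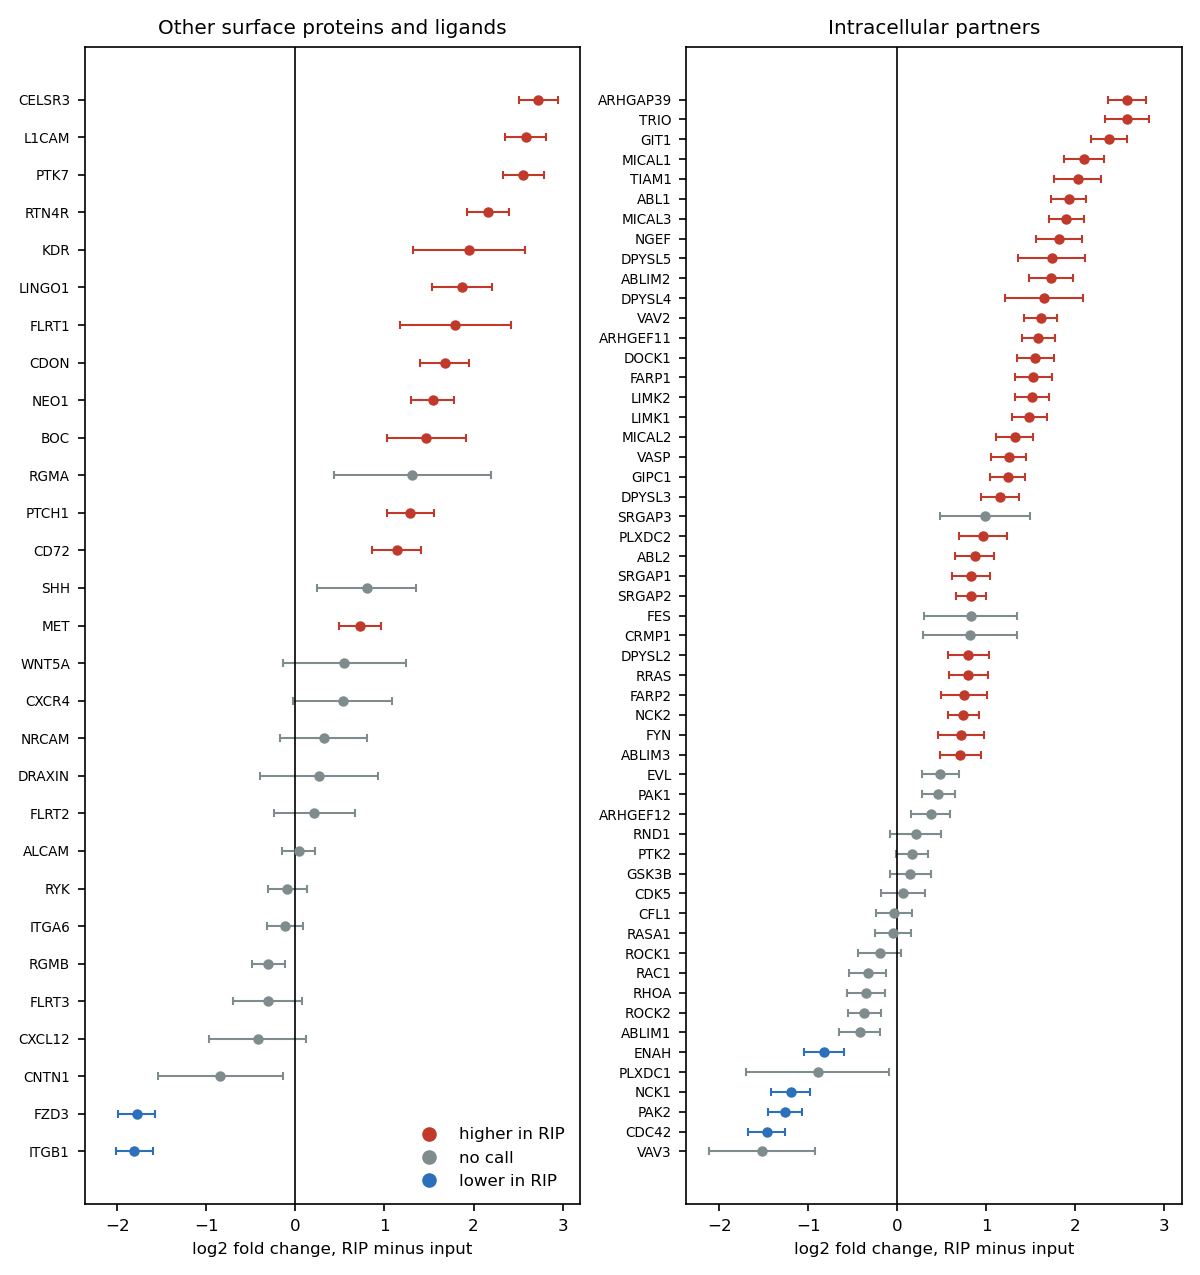
Log2 fold change of RIP over input (x axis, edgeR, bars of 1 standard error from edgeR's fit of 4 pairs) for the 83 tested genes of the partner list, with other surface proteins and ligands on the left and the list of intracellular partners, which also holds PLXDC1 and PLXDC2, on the right. Red points were called higher (44), blue points lower (6), and gray points had no call.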

How the data were processed

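RPS6 RIP-seq and input libraries of 4 cell lines were used, 1 of each per line. Per the submitters' processing notes, reads passed CASAVA 1.8 and were aligned to hg19 with TopHat2 2.0.9. The sequencer model differs between the study's methods and the series record. The counting tool, its annotation, and its use of strand are not given in the sources used here. The authors deposited FPKM values, normalized for length and depth in 2 tables that were made separately, with both libraries of a line in the same table. They also deposited estimated counts, scaled by 1 factor per library and split between overlapping genes, although the design had assumed raw counts. Dividing by that factor gave whole fragments for 92.8% to 94.3% of values. The authors' tables of fold changes, p-values, and q-values were not used. Loci overlap and paralogs may share reads. Coordinates are printed as deposited, and several genes can share 1 locus, such as 5 genes each for those of SEMA3F and SEMA6A.

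Estimated counts were rounded and fitted for all genes that reached a mean count of 10, with edgeR 4.0.16 in R 4.3.3 (TMM, quasi-likelihood test, cell line as a block, Benjamini-Hochberg threshold 0.05 over all genes tested). Each standard error (SE) is the absolute log2 fold change divided by the square root of the quasi-likelihood F statistic. That statistic uses a dispersion moderated over all genes, so the SE is not the spread of the 4 pairs. Cell lines pair the libraries by design, and deviations of a RIP library from its group mean correlated with those of its own input at r between 0.80 and 0.87 over 19921 genes, and at most at -0.01 with another input. After TMM, the median log2 ratio of protein-coding genes lay between 0 and 0.07 in the 4 lines. On simulated counts, 97 of 97 genes changed 4-fold and 51 of 94 changed 2-fold were recovered, with 2 false calls. The simulation changed 191 of 19738 genes, in both directions alike, with 1 dispersion for all genes and the same change in every line. In the real data 26.5% of genes were called higher and 24.9% lower, so these false calls describe the simulated setting only. Ratios within a line were log2 of (RIP FPKM + 1) over (input FPKM + 1), with no test. Intervals cover counting error only, and 3 fragments corresponded to 0.0553 to 0.0866 CPM. DESeq2 1.42.0, limma 3.58.1, other count minimums and pseudocounts, the fit without the block, left-out pairs, protein-coding centering, recovered fragments, and each table alone were alternatives, of which the last 2 were chosen after seeing the data.

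Members named with a value in every library were the 12 highest and 12 lowest called with the same direction in 4 of 4 lines, and the member of each family with the highest mean input FPKM. Of the partner list, the 3 highest and 3 lowest were named by the same rule. Other members were named after their values were seen. The members and lists were chosen with earlier results of these data known.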

Additional observations from a re-analysis of the deposited data

Results flagged for a closer look

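Among the members named with a value in every library, 32 sets of 4 log2 ratios of RIP to input, 1 per cell line on the (FPKM + 1) scale, were searched for a line far from the other 3, and 3 were found. Chance alone would mark about 1 in 20 such sets if the 4 ratios had the same spread. That rate does not hold for a gene nearly absent from a line, since the added 1 keeps its ratio there near 0. All 3 concerned Hep3B. The ratio of SEMA3C was 0.76 in Hep3B and between -0.13 and -0.04 in the other lines. The ratio of ROBO1 was 1.2 in Hep3B, the line that expressed it, and between -0.20 and 0.03 elsewhere, where it was nearly absent. The ratio of EPHB3 was 0.11 in Hep3B, where 1 input and 15 RIP fragments were counted, and between 2.07 and 2.29 elsewhere. Its FPKM in Hep3B was 0.00554 in input and 0.0873 in RIP, so the low ratio there reflects the added 1.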

How the results depend on the processing

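The count of 41 members higher in RIP fell to 11 without the replicate block, all of them among the 41. It was 33 to 41 under the other alternatives, with 34 and 35 in limma, 41 in DESeq2 (40 shared), 36 to 40 with a pair left out, and 36 and 33 in each table alone. The count of members lower in RIP was 0 to 1 with a pair left out, the 1 being SEMA3C without Hep3B. Partner genes higher in RIP numbered 10 without the replicate block and 28 in the table of Hep3B and HCT116 alone, and partner genes lower in RIP numbered 0 without the replicate block. The log2 fold change of SEMA3C turned to 0.13 in limma on log2(FPKM + 1) and 0.12 on log2(FPKM + 0.1). That of EFNA1 ran from -0.00752 (without HCT116) to 0.271 with a pair left out and was -0.13 in the table of DU145 and SW1990 alone, and that of ROBO1 was -0.49 in DESeq2. With a pseudocount of 0.1, members at least 2-fold lower numbered 1 in Hep3B, 1 in HCT116, and 2 in DU145. The mean of the members' median log2 ratio was 1.39 with that pseudocount, 1.19 with a minimum of 50 counts, and 0.59 with no minimum. The causes of these changes were not tested. SLIT1 rests on 3 input fragments, and its value was 0.19 in limma on log2(FPKM + 1).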
